A study of Mus musculus with 12 samples.

Results

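Ctsd, Ctss, Ctsl, Cstb, Grn and Cd68 are 6 genes of the lysosome and its proteases, and they were followed across the 4 groups of a NanoString study of mouse lung CD11c+ cells. They were taken by their symbols in the deposited table, which made 6 of its 754 endogenous genes. All 6 passed the minimum mean count of 20 and were among the 415 genes tested.

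RELMa, the product of Retnla, is a secreted protein of alternatively activated macrophages, and the study measured what the recombinant protein does to lung myeloid cells that cannot make it. The groups, with 3 samples each, were run 2 cells given rRELMa, run 2 cells given PBS, run 1 cells given rRELMa and run 1 cells given PBS. Every group came from RELMa-/- mice that had received 500 larvae (L3) of the nematode Nippostrongylus brasiliensis and were killed on day 10, so the Retnla deletion and the infection were shared by treated and control cells, and no wild-type or uninfected cells were compared. CD11c+ cells sorted from the dissociated lungs were kept overnight at 37 °C in 10% serum, starved in 1% serum (1 h according to the growth protocol and 2 h according to the design text) and given 500 ng/ml rRELMa or PBS for 4 h. Lysate of about 5000 cells was put with probes of the Myeloid Innate Immunity Panel for 18 h at 65 °C, and transcripts were counted by their barcoded probes. The labels say neither whether the numbered samples were separate animals or cultures nor what separated the runs. P-values therefore rest on how far the samples of a group spread, possibly for technical reasons alone, and the run cannot be told apart from whatever else differed between the 2 runs. The lysates were bulk samples, in which fewer cells of a type and less RNA per cell cannot be told apart.

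Lysosomes are acidic compartments where macrophages break down what they take up, and an alveolar macrophage, which clears surfactant and debris from the airspace, is rich in them. Cathepsins are the main lysosomal proteases. They are made as inactive precursors that are cut in acid, and in antigen-presenting cells some of them also trim the invariant chain and the antigens that class II molecules carry. Ctsd encodes cathepsin D, an aspartic protease, while Ctss and Ctsl encode cathepsins S and L, which are cysteine proteases. Cstb encodes cystatin B, an inhibitor of cysteine cathepsins that sits outside the lysosome. Grn encodes progranulin, a secreted and lysosomal precursor that is cut into granulins, and Cd68 encodes a heavily glycosylated protein of the late endosomal and lysosomal membrane used as a macrophage marker. Many lysosomal genes are bound by TFEB and related factors at CLEAR elements, whose core is the E-box CACGTG.

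On GRCm38.p6 the genes lie at chr7:142375910-142387827 (Ctsd), chr3:95526786-95556405 (Ctss), chr13:64361890-64370772 (Ctsl), chr10:78425670-78427622 (Cstb), chr11:102430507-102436809 (Grn) and chr11:69664213-69666170 (Cd68). Where in each transcript the probe binds was not known here. Promoter windows of 250 bases before the transcription start were taken from RefSeq (GRCm38.p6), which matched 5 of the 6 genes by symbol, all but Cstb. The windows of Ctsd and Ctss are shown because Ctsd had the largest difference between runs of the 6 genes and its window was the only one of the 5 to hold the CLEAR-type letters CACGTGAC, while that of Ctss held letters of the interferon-response type, a pair of GAAA with any 2 bases between them. Capitals mark CACGTG in Ctsd and the GAAA pair in Ctss, and both are written 5′ to 3′ on the strand of the gene, minus strand chr7:142387828-142388077 for Ctsd and plus strand chr3:95526536-95526785 for Ctss.
Ctsd: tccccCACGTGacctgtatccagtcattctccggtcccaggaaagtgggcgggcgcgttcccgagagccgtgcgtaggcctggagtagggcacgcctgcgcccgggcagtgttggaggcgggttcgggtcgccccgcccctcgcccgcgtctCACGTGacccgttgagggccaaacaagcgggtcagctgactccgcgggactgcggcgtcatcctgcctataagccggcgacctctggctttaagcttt
Ctss: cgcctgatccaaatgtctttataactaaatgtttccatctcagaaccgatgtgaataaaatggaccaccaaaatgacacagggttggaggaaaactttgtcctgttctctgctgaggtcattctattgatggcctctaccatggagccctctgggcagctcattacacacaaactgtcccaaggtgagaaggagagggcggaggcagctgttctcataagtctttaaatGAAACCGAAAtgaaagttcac
Counting the base before the start as -1, CACGTG began at -245 and -98 in Ctsd, each time within CACGTGAC. In Ctss, GAAACCGAAA began at -21. The windows of Grn and Cd68 held neither CACGTG nor the spaced GAAA pair on either strand. The start used for Ctsl lay 252 bases inside the outer end of its gene, so its window, which held CACGTG once, is not shown as a promoter. Of 32851 mouse promoters of this length, 6.02% held CACGTG, 1.85% CACGTGAC (which contains CACGTG) and 2.98% the GAAA pair, both strands searched. Of the 399 windows of tested genes, 8.52% held CACGTG, 3.26% CACGTGAC and 6.27% the GAAA pair. These matches describe letters and not bound sites.

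Endogenous probes summed to between 411169 and 765719 counts in samples of run 2, against 179719 to 257415 in run 1, and the endogenous count per positive-control count was 6.76 to 9.32 in run 2, against 1.39 to 1.88 in run 1. Retnla, deleted in these mice, gave 5 to 18 raw counts per sample, where the negative-control probes averaged 7.62 to 15. All 7 alveolar macrophage markers on the panel were tested, with a summed raw count of 93392 to 185025 per sample in run 2, against 38230 to 54608 in run 1. Nearly all of that sum was Chil3, with a mean raw count of 97272 over the 12 samples. The means of the others lay between 82.5 (Siglecf) and 663 (Marco). The CD11c+ label also admits dendritic cells, and 6 of 9 of their markers on the panel were tested. Of 9 neutrophil markers on the panel 2 were tested, Mmp8 (mean raw count 437) and S100a8 (241). Of 3 epithelial, endothelial or stromal markers 2 were tested, Cav1 (1417) and Cdh1 (27.3). The panel's markers of eosinophils (4), T cells (1) and B cells (1) all fell short of the minimum, and it held no NK cell marker of the list. Sampling noise did not account for the differences within any of the 12 replicate pairs (chi-square over its degrees of freedom, 1.55 to 3.25), so all 12 samples were counted. Values below are counts scaled by TMM, edgeR's trimmed mean of log ratios, over the 415 tested genes.

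The 6 genes were well above background everywhere. The lowest raw counts over the 12 samples were 6417 for Ctsd, 4311 for Cstb, 3694 for Ctss, 2622 for Cd68, 308 for Ctsl and 181 for Grn, and probes differ in efficiency, so these do not order the transcripts. Together the 6 genes took 13.5% to 14.5% of endogenous counts in run 2, against 9.56% to 10.4% in run 1, and Ctsd alone 7.20% to 7.96% in run 2, against 3.54% to 3.81% in run 1. Within groups the coefficient of variation of the scaled counts lay between 0.977% and 9.09%. Its highest value belonged to Ctss in the rRELMa samples of run 1 and its lowest to Ctss in the PBS samples of run 2.

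The rRELMa treatment changed none of the 6 genes by the test, at an adjusted p under 0.05 (edgeR quasi-likelihood test with run as a block, Benjamini-Hochberg over the 415 genes). The share of all tested genes called was 0.241%, which is 1 gene. At an unadjusted p under 0.05 there were 2 of the 6 genes, Grn and Ctsl, beside 7.71% of all tested genes. DESeq2 and limma also called none of the 6. The median log2 fold change of the 6 was -0.01, beside 0.01 for all tested genes.

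Cathepsin D overlapped between treatments. In run 2, Ctsd had 31046, 31210.3 and 32674 scaled counts in rRELMa samples, against 31681, 31314 and 33168 in PBS samples. The run 1 values were 11103, 12142 and 12066 in rRELMa samples, against 12367, 12659.9 and 11747 in PBS samples. Treated and control samples overlapped in both runs, while every run 2 sample had more than every run 1 sample. Its log2 fold change with rRELMa was -0.04 (SE 0.04, 95% interval -0.11 to 0.04, adjusted p = 0.833, edgeR), and 1 of 6 rRELMa samples lay above the PBS mean of its run.

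Cathepsin S, the protease known for the last cut of the invariant chain, had effects of opposite sign in the 2 runs, neither of which passed the test. In run 2, Ctss had 8698, 8384 and 8868 scaled counts in rRELMa samples, against 8232, 8345 and 8188 in PBS samples. Run 1 gave 6063, 6755 and 7277 in rRELMa samples, against 7444, 7364 and 7219 in PBS samples. In these TMM-scaled counts all rRELMa samples of run 2 lay above the PBS samples of that run, at the nearest 8384 against 8345. In run 1 the groups overlapped, with the first rRELMa sample lowest of all 12. The log2 fold change was 0.07 in run 2 (SE 0.05, adjusted p = 0.836) and -0.13 in run 1 (SE 0.05, adjusted p = 0.574, edgeR). The difference of these effects was 0.20 (SE 0.07, 95% interval 0.05 to 0.35, unadjusted p = 0.012, adjusted p = 0.485, edgeR). Over both runs it was -0.03 (SE 0.04, 95% interval -0.12 to 0.06, adjusted p = 0.891). Quantile normalization, under which Ctss held place 6 in the count order in every sample of the other 3 groups and place 7 in every rRELMa sample of run 1, and so had no spread within groups, called the run 1 effect (-0.19, adjusted p = 1.9e-10) and the difference of effects (0.19, adjusted p = 1.05e-08). No other alternative called either.

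Cathepsin L, which shares many substrates with cathepsin S, was separated by treatment in the TMM-scaled counts of run 2 without passing the test. Ctsl had 549, 587 and 585 scaled counts in rRELMa samples of run 2, against 528, 510.2 and 519.9 in PBS samples. Its run 1 counts were 530.1, 567 and 579 in rRELMa samples, against 561, 510.0 and 522 in PBS samples. The run 2 groups did not overlap and the run 1 groups did, and run 2 and run 1 samples covered much the same range. Its log2 fold change was 0.11 over both runs (SE 0.04, 95% interval 0.02 to 0.21, unadjusted p = 0.016, adjusted p = 0.634, edgeR), with 5 of 6 rRELMa samples above the PBS mean of their run. Within runs it was 0.14 in run 2 (adjusted p = 0.525) and 0.08 in run 1 (adjusted p = 0.871).

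Cystatin B, the inhibitor in the set, overlapped between treatments in both runs. Cstb had 10372, 10253 and 10986 scaled counts in rRELMa samples of run 2, against 10375, 10550.0 and 11093 in PBS samples. For run 1 they were 7631, 7558 and 8106 in rRELMa samples, against 8448, 7751 and 8018 in PBS samples. In these TMM-scaled counts only the run separated its samples, all of run 2 being higher. As shares of the endogenous totals the samples of the runs overlapped. With library totals the log2 difference between runs was 0.04 in rRELMa cells and 0.07 in PBS cells, and neither was called. The log2 fold change with rRELMa was -0.04 (SE 0.04, 95% interval -0.11 to 0.04, adjusted p = 0.838, edgeR), and 2 of 6 rRELMa samples lay above the PBS mean of their run.

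Progranulin gave the largest difference with rRELMa among the 6 genes. Grn had 468, 541 and 473 scaled counts in rRELMa samples of run 2, against 388, 428 and 464 in PBS samples. In run 1 it had 328, 328 and 340.3 in rRELMa samples, against 329, 332 and 305 in PBS samples. In these TMM-scaled counts the groups of run 2 did not overlap, by a margin of few counts between the lowest rRELMa and the highest PBS sample. Those of run 1 overlapped. Over both runs the log2 fold change was 0.16 (SE 0.06, 95% interval 0.04 to 0.27, unadjusted p = 0.0118, adjusted p = 0.632, edgeR), a difference of 11.4%, and 6 of 6 rRELMa samples lay above the PBS mean of their run. Within runs it was 0.22 in run 2 (SE 0.07, adjusted p = 0.367) and 0.04 in run 1 (SE 0.09, adjusted p = 0.928), and the difference of the effects was 0.17 (SE 0.12, adjusted p = 0.852).

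Cd68, the membrane glycoprotein, overlapped between treatments as well. It had 7041, 7205 and 7465 scaled counts in rRELMa samples of run 2, against 7100.1, 7145 and 6811 in PBS samples. In run 1 it had 4308, 4549.8 and 4930.1 in rRELMa samples, against 4674, 4621 and 4803 in PBS samples. Treated and control samples overlapped in both runs, with all run 2 samples above all run 1 samples. Its log2 fold change was 0.01 (SE 0.04, 95% interval -0.07 to 0.08, adjusted p = 0.993, edgeR), and its sign was negative under library totals, reference genes, TMM without the 6 genes, DESeq2 and subtraction of the negative controls.

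**Figure D1:**
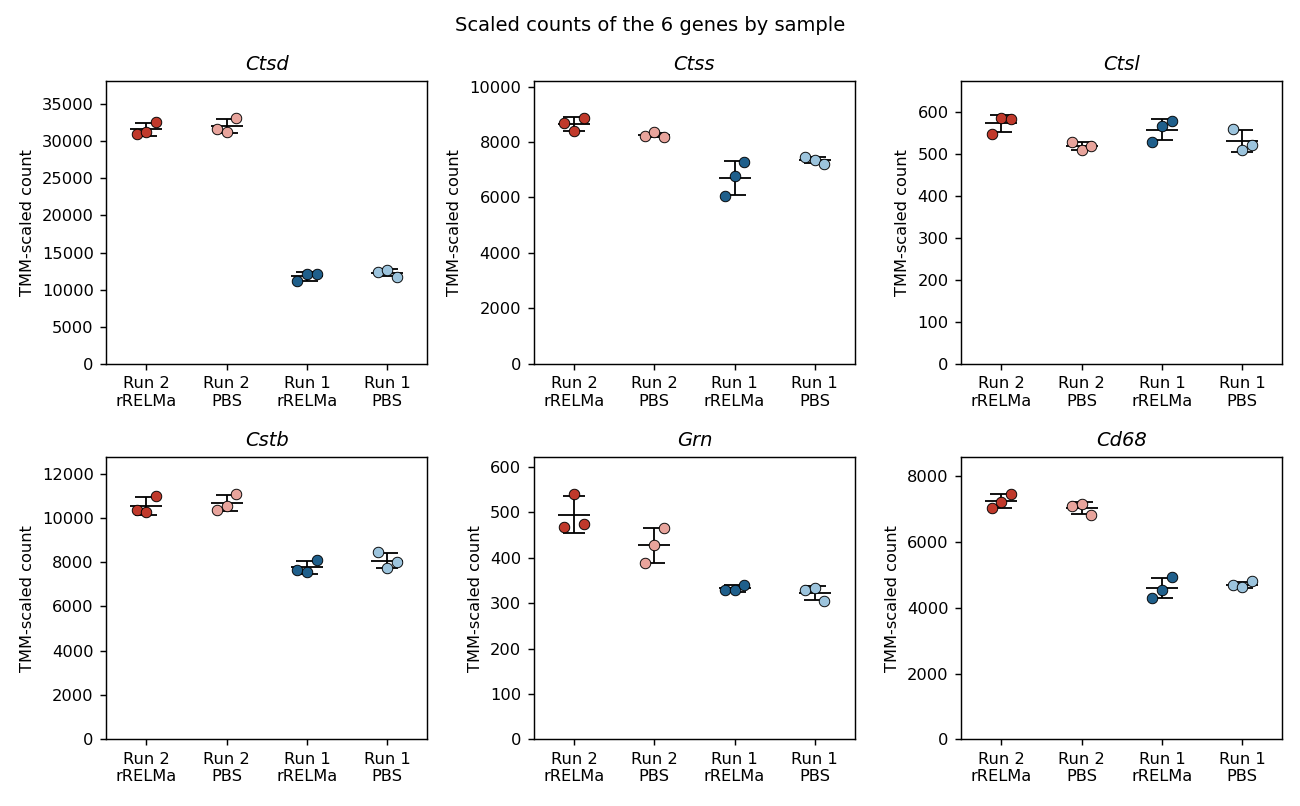
TMM-scaled counts (vertical axes, from 0) of each of the 6 genes in the 12 samples, by run and treatment; points are samples, the long bar is the group mean and the whiskers 1 SD (n = 3). Ctsd samples of run 2 sit between 31046 and 33168 and those of run 1 between 11103 and 12659.9, whereas the Ctsl samples of the 2 runs overlap.

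Counted over the 6 genes with TMM scaling, rRELMa and PBS samples did not overlap for 3 in run 2, Ctsl, Ctss and Grn, all higher with rRELMa. Among all tested genes 14.9% did not overlap in run 2, and 8.92% did so with rRELMa higher. In run 1 none of the 6 was without overlap, against 12.5% of all tested genes. The separation in run 2 depended on the scaling. With raw counts divided by the endogenous total of each sample, the run 2 groups overlapped for Ctsl, Ctss and Grn alike. With library totals their log2 fold changes in run 2 were 0.08, 0.01 and 0.16. With TMM the count at an adjusted p under 0.05 was 0 of 6 in run 2, where it was 0% of all tested genes, and 0 of 6 in run 1, where it was 0.241% of them. At an unadjusted p under 0.05 there were 2 of the 6 in run 2, Grn and Ctsl, beside 7.47% of tested genes, and 1 in run 1, Ctss, beside 6.02% (edgeR). The difference of the effects between runs was called for 0 of 6 genes and for 0% of all tested genes. At an unadjusted p under 0.05 it was reached by 1 of the 6, Ctss, beside 6.75% of tested genes (28 of 415, edgeR). The effects within each run, their difference and the differences between runs below share samples and are not independent of each other.

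**Figure D2:**
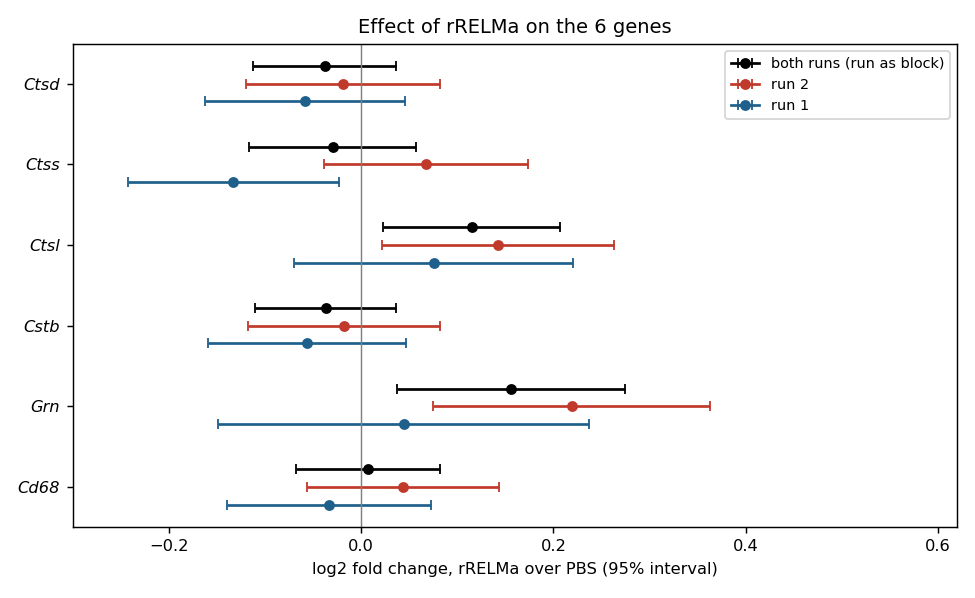
Log2 fold change of rRELMa over PBS (horizontal axis) for each of the 6 genes over both runs with run as a block, in run 2 and in run 1; points are edgeR estimates and bars 95% intervals before adjustment. Grn and Ctsl lie to the right of 0 over both runs and in run 2, at 0.16 and 0.11 over both runs, and no adjusted p was under 0.05.

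The largest differences of the 6 genes lay between the runs. With TMM scaling 5 of the 6, all but Ctsl, were higher in run 2 than in run 1, in rRELMa cells and again in PBS cells, which are other samples. Of all tested genes, 29.9% were called higher in run 2 in rRELMa cells and 29.9% in PBS cells, and 26.3% in both. Called in either direction were 63.4% of tested genes in rRELMa cells and 65.8% in PBS cells. In these TMM-scaled counts the groups did not overlap for 5 of the 6 genes in each treatment. Among all tested genes 68% did not overlap in rRELMa cells and 67% in PBS cells. Separation of the runs was thus common on the panel. With run 2 higher, 33% of tested genes were without overlap in rRELMa cells and 31.1% in PBS cells. The median log2 difference of the 6 genes was 0.51 in rRELMa cells and 0.40 in PBS cells, beside -0.04 and -0.03 for all tested genes.

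Ctsd differed most. It averaged 31644 ± 896 scaled counts in run 2 rRELMa cells and 11770.0 ± 579 in run 1 rRELMa cells (SD, n = 3 each), which is 2.69-fold (log2 difference 1.43, SE 0.05, adjusted p = 3.82e-20, edgeR). In PBS cells it averaged 32054 ± 982 in run 2 and 12258 ± 466 in run 1 (SD, n = 3 each), which is 2.61-fold (log2 1.39, SE 0.05, adjusted p = 7.61e-20, edgeR). Counted from the highest log2 difference, Ctsd was number 13 of the 415 genes in rRELMa cells and number 14 in PBS cells.

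Cd68, Cstb, Grn and Ctss were also higher in run 2 with TMM, by smaller factors. Cd68 was 1.58-fold higher in run 2 in rRELMa cells (adjusted p = 1.76e-12) and 1.49-fold in PBS cells (adjusted p = 2.73e-11, edgeR). Cstb was 1.36-fold higher in rRELMa cells (adjusted p = 5.94e-09) and 1.32-fold in PBS cells (adjusted p = 3.29e-08, edgeR). Grn was 1.49-fold higher in rRELMa cells (adjusted p = 4.78e-07) and 1.32-fold in PBS cells (adjusted p = 0.000116, edgeR). Progranulin was thus among the 5 in both treatments, with the widest standard error of them, 0.08 on the log2 scale in each. Ctss was 1.29-fold higher in rRELMa cells (adjusted p = 4.67e-07) and 1.12-fold in PBS cells (adjusted p = 0.00604, edgeR). Without the third PBS sample of run 1 the Ctss difference in PBS cells was 0.15 on the log2 scale (adjusted p = 0.0584) and no longer called.

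Ctsl stayed apart from the other 5 under TMM. Its log2 difference between runs was 0.04 in rRELMa cells (SE 0.06, 95% interval -0.09 to 0.17, adjusted p = 0.638) and -0.03 in PBS cells (SE 0.07, 95% interval -0.16 to 0.10, adjusted p = 0.714, edgeR). It averaged 574 ± 21.1 scaled counts in run 2 rRELMa cells and 559 ± 25.5 in run 1 rRELMa cells (SD, n = 3 each). In PBS cells the averages were 519.5 ± 9.09 in run 2 and 531 ± 26.5 in run 1 (SD, n = 3 each).

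These directions depend on the scaling. In PBS cells the median of all tested genes was at -0.03 log2 with TMM, -0.36 with library totals, -0.33 with reference genes, 1.59 with positive controls, 0.06 after subtraction of the negative controls, 0.17 with quantile normalization and 0.34 with TMM over all genes without the minimum count. The Ctss difference in PBS cells was 0.17 with TMM, but -0.16 with library totals (adjusted p = 0.000596), -0.13 with reference genes and 1.79 with positive controls. Subtraction of the negative controls moved the median of all tested genes up and Ctss and Ctsl down, Ctss to -0.06 and Ctsl to -0.23 in PBS cells, so a common shift does not describe that setting. Cstb and Grn were both at 0.07 with library totals and at 0.10 with reference genes in PBS cells, and neither was called there. Ctsl was lower in run 2 with library totals at -0.36 (adjusted p = 3.09e-05) and higher with positive controls at 1.59 (adjusted p = 1.89e-20). In rRELMa cells Ctss was at -0.03 with library totals and 0.01 with reference genes, and Ctsl at -0.36 and -0.31. In PBS cells Ctsd was at 1.06 with library totals, 1.09 with reference genes and 3.0 with positive controls, and Cd68 at 0.25, 0.28 and 2.20 under the same settings. Cd68 was called higher in run 2 under each of the 11 settings, and Ctsd under 10 of 11. The exception for Ctsd was quantile normalization, which sets it to 0 by construction, since it was the gene with the third-highest count in every sample. Relative to the median of all tested genes, the Ctsd difference in PBS cells was 1.42 with TMM and between 1.10 and 1.42 over the settings other than quantile normalization. Ctsl was at the median itself under TMM and between -0.29 and 0.00 of it over those settings. The split of called genes moved too, with 124 higher and 149 lower in PBS cells with TMM, 62 and 217 with library totals, 63 and 206 with reference genes, 366 and 20 with positive controls, 163 and 107 with quantile normalization, and 208 and 206 without the minimum count.

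**Figure D3:**
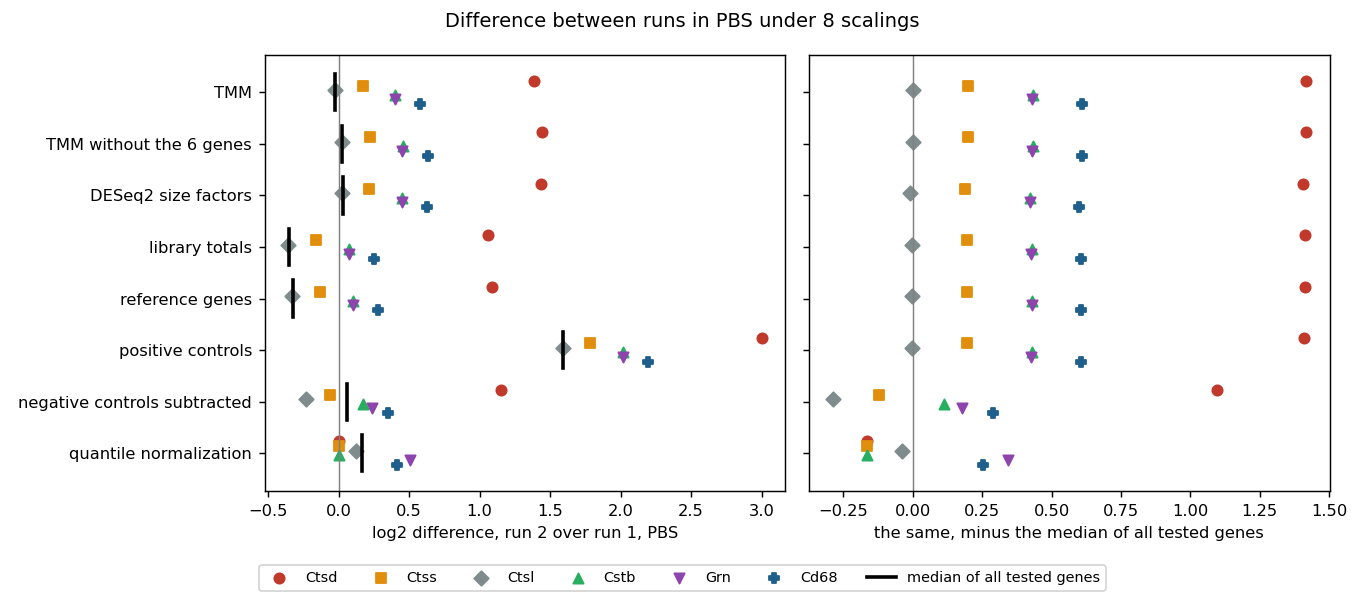
Log2 difference of run 2 over run 1 in PBS cells for the 6 genes under 8 scalings (left), and the same minus the median of all tested genes (right); symbols are genes and the black bar is the median of all tested genes. Ctss is at 0.17 with TMM but below 0 with library totals, reference genes and subtracted negative controls, Ctsl changes sign between scalings, and Ctsd is highest in every row but quantile normalization, where it is 0 by construction.

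Ratios of raw counts within a sample need no scaling. Over the 15 pairs of the 6 genes, the 6 samples of run 2 and the 6 of run 1 did not overlap for 10 pairs and overlapped for 5. Among all 85905 pairs of tested genes, 55.1% did not overlap. All 5 ratios of Ctsd to another member were without overlap and higher in run 2. The log2 ratio of Ctsd to Ctsl was 5.82, 5.73 and 5.80 in rRELMa samples and 5.91, 5.94 and 6.0 in PBS samples of run 2. In run 1 it was 4.39, 4.42 and 4.38 in rRELMa samples and 4.46, 4.63 and 4.49 in PBS samples. The 2 runs were thus separated by more than the range within either, and the mean difference was 1.40. For the other partners of Ctsd the mean difference of the log2 ratio, run 2 minus run 1, was 1.14 for Ctss, 0.99 for Cstb, 0.92 for Grn and 0.79 for Cd68. Relative to each of the other 5 genes, then, Ctsd counts were higher in run 2. Pairs that overlapped between runs were Ctss with Ctsl, with Cstb and with Grn, Cstb with Grn, and Grn with Cd68.

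**Figure D4:**
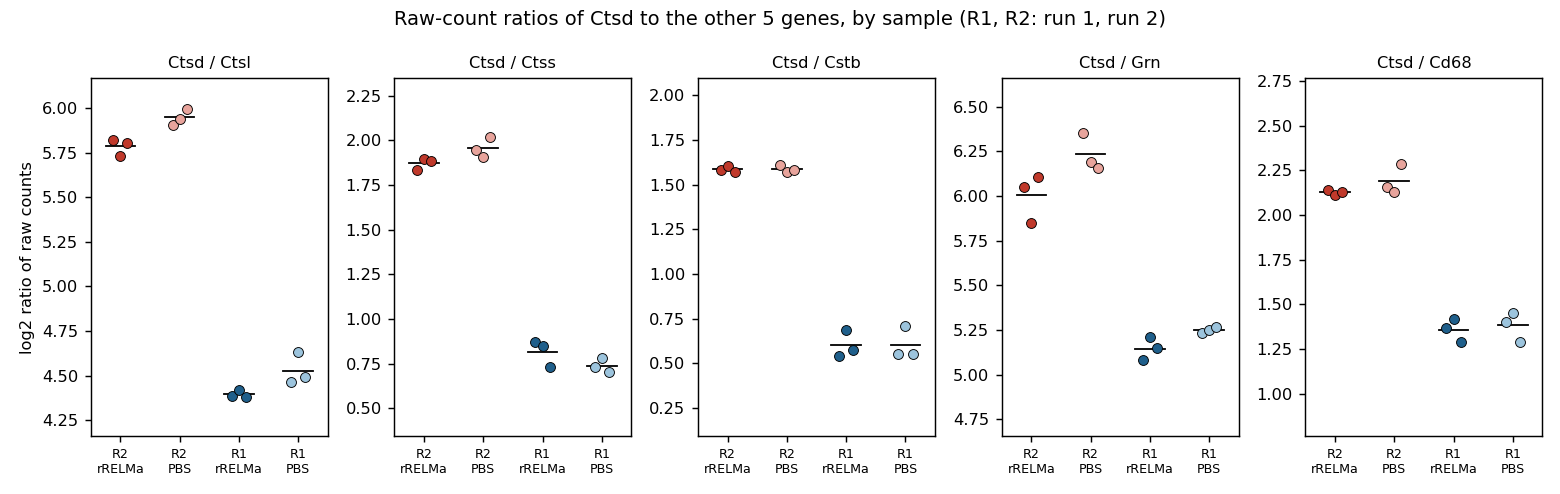
Log2 ratio of the raw count of Ctsd to that of each of the other 5 genes (vertical axes, each with its own offset), by sample; R2 and R1 are run 2 and run 1, points are samples and bars group means (n = 3). In each panel all run 2 samples lie above all run 1 samples, by a mean of 0.79 (Cd68) to 1.40 (Ctsl), and for Ctsl and Grn the rRELMa samples lie below the PBS samples in both runs.

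The same ratios were read for the treatment. In 3 of 15 pairs the rRELMa and PBS samples did not overlap and differed the same way in both runs, beside 1.25% of all pairs of tested genes. Ctsd over Ctsl was lower with rRELMa, by a mean log2 difference of -0.16 in run 2 and -0.13 in run 1. Ctsd over Grn was lower as well, at -0.23 in run 2 and -0.10 in run 1. Ctsl over Cstb was higher, at 0.16 in run 2 and 0.13 in run 1. The 3 pairs share members and are not separate observations, and no test was made over pairs.

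Likeness of pattern was measured as the root mean square difference of log2 scaled counts over the 12 samples, each gene centred on its own mean. Genes nearest to Ctsd were Mmp12, macrophage elastase, at 0.0952, Cd36, a scavenger receptor for oxidised lipoproteins, at 0.118, and Daglb, a diacylglycerol lipase, at 0.135, where the median over all other tested genes was 0.766. Nearest to Ctss were Lpl, lipoprotein lipase, at 0.0458, Crip1, and Cybb, the catalytic subunit of the phagocyte NADPH oxidase. Nearest to Ctsl were Ikzf1, a transcription factor, at 0.0597, Mmp19, a metalloproteinase, and Ski, a corepressor of TGF-beta signalling. Txn1, thioredoxin, and Stat6, which acts downstream of interleukin 4 and 13 receptors, were the nearest to both Cstb (0.0476 and 0.053) and Grn (0.102 and 0.11). Next came Anxa4, an annexin, for Cstb and Chil3, a chitinase-like protein, for Grn. Nearest to Cd68 were Plaur, the urokinase receptor, at 0.0587, Anxa1, another annexin, and Itgb2, the beta-2 integrin chain. Among the 6 genes themselves the closest pair was Ctss and Cstb at 0.102 and the farthest was Ctsd and Ctsl at 0.707. The 12 points share runs and scaling, so each distance holds the difference between runs as well as the spread within groups.

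Other genes of the lysosome and of the pathways around it were taken from 8 lists, with 39 members on the panel and 29 tested. With rRELMa none of the 29 was called (edgeR, run as a block), and 2 had an unadjusted p under 0.05. The smallest p belonged to Tnfrsf1b, a tumour necrosis factor receptor reported to bind progranulin, at a log2 fold change of -0.09, and to Stab1 at -0.30 (adjusted p = 0.634 for each). Between runs, 12 of the 29 were higher and 11 lower in rRELMa cells, and 11 were higher and 13 lower in PBS cells. Over all tested genes 29.9% were higher and 33.5% lower in rRELMa cells, and 29.9% were higher and 35.9% lower in PBS cells. The companions thus had calls both ways, as the panel did, with a median of 0.12 in rRELMa cells and 0.03 in PBS cells.

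The 3 tested lysosomal hydrolases and membrane proteins, of 30 listed and 5 on the panel, were higher in run 2, as were 5 of the 6 genes. All 3 were called in both treatments and under every scaling tried in PBS cells. Gusb, of the same list and with a mean raw count of 659, was not tested. It was one of the reference genes, and so was part of the reference-gene scaling. Lipa, lysosomal acid lipase, differed by 0.96 log2 in rRELMa cells and 0.89 in PBS cells. Laptm5, a lysosomal membrane protein, differed by 0.72 in rRELMa cells and 0.71 in PBS cells, and Man2b1, lysosomal alpha-mannosidase, by 0.71 in rRELMa cells and 0.72 in PBS cells. Ctsa, the carboxypeptidase cathepsin A and the only other tested gene of the protease list, differed by 0.54 in rRELMa cells (adjusted p = 0.0524) and 0.75 in PBS cells (adjusted p = 0.00544, edgeR). Its counts were low, and in PBS cells it was not called with library totals (0.42) or reference genes (0.45) and was at 3.8 after subtraction of the negative controls.

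Class II presentation, the pathway that cathepsins S and L serve, was lower in run 2 with TMM. All 6 tested genes were called lower in both treatments, with a median of -0.87 in rRELMa cells and -0.99 in PBS cells. H2-Ab1 differed by -1.12 in rRELMa cells and -1.27 in PBS cells, H2-Aa by -0.86 in rRELMa cells and -1.03 in PBS cells, and Cd74, the invariant chain, by -0.51 in rRELMa cells and -0.47 in PBS cells. With positive controls all 6 were above 0 in PBS cells (0.35 to 1.14), though still below the median of all tested genes, as under every scaling tried. Without the minimum count 5 of the 6 were called lower in each treatment, Cd74 being the exception (-0.11 in rRELMa cells, -0.10 in PBS cells).

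Other companions were split. Among protease inhibitors, Serpinb9 (-1.78 in rRELMa cells, -1.53 in PBS cells) was lower in run 2 with TMM, though above 0 with positive controls in PBS cells, and Serpinb6a was higher (0.41 in rRELMa cells, 0.29 in PBS cells), though not with library totals or reference genes in PBS cells. Serpins mainly inhibit serine proteases. Of 6 scavenger receptors, Cd36 (1.69 in rRELMa cells, 1.53 in PBS cells) and Mrc1 (2.00 in rRELMa cells, 1.98 in PBS cells) were higher, Olr1 was called higher with TMM in rRELMa cells (0.30) and not in PBS cells (0.18), though at -0.10 in rRELMa cells with library totals, and Stab1 (-1.54 in rRELMa cells, -1.32 in PBS cells) and Cxcl16 (-0.57 in rRELMa cells, -0.46 in PBS cells) were lower with TMM but above 0 with positive controls in PBS cells. Of 5 endosomal Toll-like receptors, which are cut by cathepsins to become active, Tlr7 (0.42 in rRELMa cells, 0.58 in PBS cells) and Tlr13 (0.77 in rRELMa cells, 0.56 in PBS cells) were higher with TMM, and Tlr7 was not called in rRELMa cells with library totals (0.02) or reference genes (0.07). Tlr9 was lower with TMM (-1.22 in rRELMa cells, -0.90 in PBS cells), and Tlr3 was not called in rRELMa cells (-0.51, adjusted p = 0.133, edgeR) and was called lower in PBS cells (-0.73), both from low counts and both above 0 with positive controls in PBS cells. Neither was called in PBS cells with quantile normalization, after subtraction of the negative controls or without the minimum count. Among progranulin partners and the proteases that cut it, Mmp12 was higher (1.31 in rRELMa cells, 1.48 in PBS cells), and Tnfrsf1a was higher with TMM by 0.35 in rRELMa cells and 0.32 in PBS cells, though not called in either with library totals or reference genes. Tnfrsf1b was at -0.14 in rRELMa cells and not called (adjusted p = 0.05002), and at -0.14 in PBS cells and called lower (adjusted p = 0.0479, edgeR), while positive controls and quantile normalization called it higher in both. Of the 2 regulators tested, Sqstm1, an autophagy adaptor, was called in rRELMa cells (0.15, adjusted p = 0.0139) and not in PBS cells (0.08, adjusted p = 0.196), and Rab20 in neither, while library totals put Sqstm1 lower in run 2 in both (-0.25 in each). The difference of the rRELMa effects between runs, which is the same contrast as the difference of these run differences between treatments, was called for none of the 29 genes (edgeR), and 1 of them had an unadjusted p under 0.05.

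**Figure D5:**
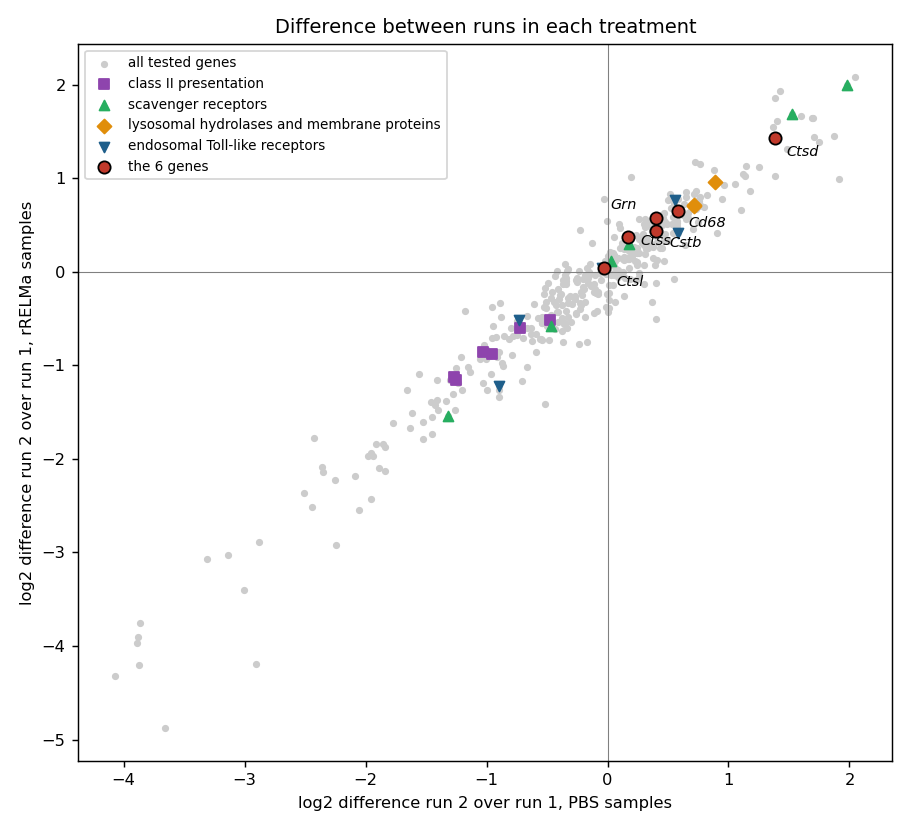
Log2 difference of run 2 over run 1 with TMM scaling in rRELMa cells (vertical axis) and in PBS cells (horizontal axis), 1 point per tested gene (415), with the 6 genes named and 4 companion lists in colour. Ctsd lies at 1.43 in rRELMa cells and 1.39 in PBS cells, among the higher genes and Ctsl near 0 in both, while class II genes lie below 0 in both; with positive controls the class II genes are above 0 in both treatments.

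Markers of cell types differed between runs too, as did most of the tested genes. With TMM 21 of the 28 tested markers were called in rRELMa cells and 21 in PBS cells. Among all tested genes 63.4% were called in rRELMa cells and 65.8% in PBS cells. Called higher in run 2 were 29.9% of tested genes in each treatment, and called lower 33.5% in rRELMa cells and 35.9% in PBS cells. Of 7 alveolar macrophage markers 6 were called higher in run 2 and 0 lower with TMM, in rRELMa cells and in PBS cells. Their median log2 difference was 1.12 in rRELMa cells and 1.25 in PBS cells. Marco was the lowest of the 7, at 0.12 in rRELMa cells and 0.03 in PBS cells. These counts belong to TMM, since the median of all tested genes in PBS cells was at -0.36 with library totals. Of 8 interstitial macrophage markers 5 were lower in each treatment with TMM, though with positive controls none was lower in PBS cells. All 3 tested monocyte markers were lower with TMM in both treatments, and with positive controls 1 of the 3 was higher in rRELMa cells. The 5 monocyte markers on the panel summed to 123 to 273 raw counts per sample in run 2, against 432 to 614 in run 1. Of 6 dendritic cell markers, 2 were higher and 1 lower in rRELMa cells with TMM, and 3 higher and 1 lower in PBS cells. With TMM the neutrophil marker Mmp8 was higher (0.67 in rRELMa cells, 1.11 in PBS cells) and S100a8 lower (-0.60 in rRELMa cells, -0.63 in PBS cells). Cav1 was lower with TMM (-1.31 in rRELMa cells, -1.28 in PBS cells). Cdh1, from low counts (mean raw count 27.3), was called higher in rRELMa cells (1.01) and not in PBS cells (0.20). The difference between these values, 0.82, was not called (edgeR). With rRELMa no tested marker of any list was called (edgeR), and 3 of 28 had an unadjusted p under 0.05. The part of these markers, and of the higher count yield of run 2, in the differences of the 6 genes between runs was not tested.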

How the data were processed

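NanoString counts of 12 samples, 3 in each of 4 groups named by run and treatment in the titles, were used. The authors deposited whole-number counts per probe for 768 probes (754 endogenous, 6 positive and 8 negative controls), and the values were read as raw counts because sample totals differ and the controls are present. No value was 0 and the lowest was 1. The counting software, and whether a floor was set, was not given in the sources used here.

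The counts were tested with edgeR's quasi-likelihood test (R 4.3.3, edgeR 4.0.16, limma 3.58.1) and TMM scaling over genes with a mean count of at least 20. Controls and 20 reference genes on the panel were left out, which left 415 genes tested and 319 below the minimum. The effect of rRELMa was fitted with run as a block, and a fit with 1 coefficient per group gave the effects within runs, their difference and the differences between runs. P-values were two-sided and adjusted by Benjamini-Hochberg over the 415 genes, and a gene was called under 0.05. Standard errors were derived from the F statistic, with 8 residual and 20 prior degrees of freedom in the group fit, and the common biological coefficient of variation was 4.85%. The fit was tested on simulated counts first. Background limits and intervals cover counting and sample spread only.

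Companion genes were named as up to 4 per list with the smallest p in a comparison, and likeness as the 3 nearest genes. The members, lists and rules were chosen with earlier results of these data known. Of 754 symbols, 744 matched current RefSeq symbols, 9 matched synonyms and 1 was not found. Alternatives were library totals, reference genes, positive controls, TMM without the 6 genes, quantile normalization, DESeq2 1.42.0, limma on log2(scaled count + 1), subtraction of the negative controls, no minimum count, a replicate block and leaving out each sample.

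Same-numbered samples did not deviate together (correlations of -0.154 to -0.007), so the numbers were not taken as pairs.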

Additional observations from a re-analysis of the deposited data

Results flagged for a closer look

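The estimated rRELMa effect on Ctss differed by 0.20 on the log2 scale between the runs (run 2 minus run 1, SE 0.07), a difference that was not called. It drew attention because the test of the difference itself had an unadjusted p of 0.012, although the adjusted p was 0.485 (edgeR quasi-likelihood test over 415 genes). An unadjusted p under 0.05 was reached by 28 of the 415 genes (6.75%), and neither effect within a run was called with TMM. With TMM Ctss was 0.07 higher with rRELMa in run 2 and at -0.13 in run 1, where the groups overlapped. In run 2, 3 of 3 rRELMa samples lay above every PBS sample, by a narrow margin (8384 against 8345 scaled counts). As shares of the endogenous totals the run 2 groups overlapped. The run 2 effect was 0.01 with library totals and 0.02 with reference genes, and the difference of effects 0.13 and 0.14. Leaving out 1 sample at a time gave differences of 0.13 to 0.29.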

How the results depend on the processing

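Over the alternatives, none called any of the 6 genes for rRELMa with run as a block. The sign of Cd68 there, 0.01 as reported, was -0.021 with library totals, -0.014 with reference genes, -0.0059 with TMM without the 6 genes, -0.023 with DESeq2, -0.016 once negative controls were subtracted, and -0.042 to 0.012 when leaving out 1 sample. The count of all genes called was 2 without the minimum count and 0 without run in the model. In run 1, it was 0 with library totals, reference genes, DESeq2, limma and no minimum count, 5 with quantile normalization (1 of them Ctss), and 0 to 1 when leaving out 1 sample. Other signs in run 1 were -0.10 (Ctsl) and -0.13 (Grn) with positive controls and 0.026 (Cd68) with quantile normalization, and Grn ranged over -0.047 to 0.044 with 1 sample left out. In run 2, Cd68 was -0.018 with library totals and -0.0060 with reference genes, Ctsd and Cstb were 0.15 each with positive controls, and 0.025 each without the minimum count. With 1 sample left out they ranged over -0.042 to 0.0067 and -0.049 to 0.0102. The difference of effects was -0.031 (Ctsd), -0.0047 (Ctsl) and -0.033 (Cstb) with library totals and -0.017 (Ctsd) and -0.022 (Cstb) with reference genes. With quantile normalization it was -0.026 for Cd68, and 1 gene, Ctss, was called. Ctsd ranged over -0.0015 to 0.10 with 1 sample left out.

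Between runs in PBS cells, 3 of the 6 were called with reference genes, Ctsd and Cd68 higher and Ctsl lower (-0.33), beside 269 of 415 tested genes. Quantile normalization called 2, Grn and Cd68, both higher, beside 270 of 415. It put Ctsd, Ctss and Cstb at 0, as each held the same place in the count order of every PBS sample. Without the minimum count 414 of 734 genes were called. Ctss was -0.16 with library totals, -0.13 with reference genes and -0.063 after subtraction of the negative controls. Ctsl was 1.59 with positive controls, 0.024 with TMM without the 6 genes, 0.021 with DESeq2, 0.34 without the minimum count, 0.13 with quantile normalization and -0.044 to 0.029 with 1 sample left out. In rRELMa cells, 3 of the 6 were called with library totals, Ctsd and Cd68 higher and Ctsl lower, beside 302 of 415 tested genes. Of all genes, 395 of 415 were called with positive controls and 420 of 734 without the minimum count. There, Ctss was -0.029 with library totals, and Ctsl was -0.36 with library totals, -0.31 with reference genes and -0.16 after subtraction of the negative controls. With 1 sample left out, 4 to 5 of the 6 were called in PBS cells, beside 253 to 278 of the 415 tested genes. In rRELMa cells 5 of the 6 were called, beside 240 to 268 of the 415. The replicate block changed no call of the 6 genes, with 5 called in each treatment, beside 271 of 415 genes in PBS cells and 259 in rRELMa cells. It raised the count of all genes called for rRELMa in run 2 to 1. The cause of these changes was not tested. Counts of Grn and Ctsl were the lowest of the 6, and 3 samples per group limit the precision.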

Other observations

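The place of each gene in the order of scaled counts within a sample also differed between runs for some of the 6 genes. Among the 415 tested genes, Ctsd held place 3 in every sample. Cd68 held place 7 in every sample of run 2, against 10 to 12 in run 1. Grn held places 69 to 86 in run 2, against 101 to 111 in run 1. Ctsl held places 65 to 75 in run 2, against 71 to 81 in run 1. These places compare probes and do not order the transcripts.

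Base composition of the 250-base windows differed among the genes. The Ctsd window had 67.2% G or C and 27 CpG pairs, that of Grn 53.6% and 8, that of Cd68 49.2% and 4, and that of Ctss 44.8% and 4. What these values have to do with the counts was not tested.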
